A study of Homo sapiens with 56 samples.

Results

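The myosin heavy chains MYO10, MYO1F, MYO1G, MYO1E, MYO5A, MYO6, MYO9B, MYH9 and MYH10 were followed across cutaneous T-cell lymphoma lines cultured with cobomarsen. They were taken as every probe set whose only gene symbol in the platform annotation was one of these names, which gave 22 of the 41091 probe sets with 1 symbol and 9 of their 19775 genes. Cobomarsen, MRG-106 in the labels, is an oligonucleotide that blocks miR-155, a microRNA abundant in activated and malignant lymphocytes. HuT102, MJ and MyLa cells (MY-LA in the labels) were cultured with cobomarsen or left untreated and profiled on days 4 and 8, and HuT78 cells were treated or left untreated and profiled on day 8. The study names day 4 for direct targets and day 8 for downstream ones. Each of the 14 groups had 4 arrays, 56 in all.

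All arms were grown in 6-well plates, and on passage every well received the dilution that restored seeding density in the untreated wells, with oligonucleotide renewed in the medium. No array of another oligonucleotide was analysed here, so inhibition of miR-155 and any effect of an oligonucleotide as such cannot be told apart. The concentration of cobomarsen is not in the labels. The lines are established long-term cultures, and HuT102 and MJ carry the retrovirus HTLV-1. Whether a group's 4 arrays stem from independent cultures is not in the labels, so the p-values speak of array-to-array spread, which may be technical. The array numbers in the titles fall into 2 runs, 1 holding HuT102 and MJ and the other MyLa and HuT78. The labels do not say what the numbers mark. Each run holds both arms of its lines, so cobomarsen and untreated arrays are compared within a run, whereas lines of different runs cannot be told apart from the runs. Differences in cobomarsen effect are therefore also given for HuT102 against MJ and for MyLa against HuT78. Within HuT102, MJ and HuT78 the numbers of the 2 arms alternate. In MyLa each day's 4 cobomarsen arrays form a block of numbers before the 4 untreated ones. Treatment in MyLa therefore cannot be told apart from the order of the numbers.

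Myosin heavy chains carry the motor domain that walks on actin filaments and a tail that sets what the motor pulls. MYO10 carries cargo to the tips of filopodia and binds phosphoinositides and integrins through its tail. MYO1E, MYO1F and MYO1G are single-headed motors that tie membrane to cortical actin, with MYO1F and MYO1G best known in blood cells. MYO5A and MYO6 carry vesicles in opposite directions along actin, MYO9B joins a motor to a domain that switches off the small GTPase RHOA, and MYH9 and MYH10 form the bipolar filaments of non-muscle myosin II that contract the cell cortex and close the cleavage furrow. In migrating T cells such motors shape the leading edge, the contracting rear and the contact with a target cell.

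The sequences that frame the experiment are those of the inhibited microRNA and of the start regions of MYO10 and MYO1F, the member genes with the largest changes in more than 1 line. They come from RefSeq on GRCh38.p14, where all 9 genes and their promoters were matched. In the mature microRNA, encoded at chr21:25573983-25574006 on the plus strand, capitals mark the seed, bases 2 to 8.
hsa-miR-155-5p: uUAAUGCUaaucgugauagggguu
The MYO10 promoter lies at chr5:16936239-16936538 and the MYO1F promoter at chr19:8577393-8577692, both on the minus strand and both printed in the direction of the gene. Each window runs from 250 bases before the annotated start to 50 after it. Capitals mark the GC box GGGCGG, read on both strands so that it also appears as CCGCCC, and the ETS core GGAAGT.
MYO10: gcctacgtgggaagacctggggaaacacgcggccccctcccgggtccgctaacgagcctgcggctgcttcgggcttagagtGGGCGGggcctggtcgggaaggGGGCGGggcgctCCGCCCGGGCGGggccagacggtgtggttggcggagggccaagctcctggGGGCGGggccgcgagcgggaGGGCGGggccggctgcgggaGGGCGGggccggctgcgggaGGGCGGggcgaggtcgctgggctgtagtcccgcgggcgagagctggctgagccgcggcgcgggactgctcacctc
MYO1F: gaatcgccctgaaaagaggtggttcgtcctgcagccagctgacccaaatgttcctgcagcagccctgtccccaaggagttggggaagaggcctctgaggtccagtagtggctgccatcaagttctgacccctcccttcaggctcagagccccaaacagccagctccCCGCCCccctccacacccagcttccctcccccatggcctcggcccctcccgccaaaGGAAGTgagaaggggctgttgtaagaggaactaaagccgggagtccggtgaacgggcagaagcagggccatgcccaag
The MYO10 window held 8 GC boxes, of which 1 pair abuts on opposite strands, and the MYO1F window held 1 GC box and 1 ETS core. A GC box stood in 15786 of 35116 promoters of this length (45.0%) and in 8 of the 9 member promoters, and 285 promoters (0.812%) held at least 8. The ETS core stood in 22.8% of all promoters and in 2 of the 9. These matches describe letters and not binding.

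Signals are MAS5 intensities on a linear scale, and each array's trimmed mean was 500. Changes are differences of group means of log2(signal + 16), cobomarsen minus untreated, ± SE, a scale that understates the change of dim probe sets. A comparison tested those probe sets with a mean, over its own arrays, no lower than the overall median signal of 74.0, and a probe set was called, or said to rise or fall, at an adjusted p under 0.05 by limma over all probe sets tested there. Each gene is described through its leading probe set, the brightest over all arrays, with the others beside it. Brightness of different probe sets is not compared. Arrays of a group correlated at 0.957 to 0.980, and no 2 arrays were identical. In HuT78 the cobomarsen arrays 2, 3 and 4 stood apart, with upper quartiles of 380 to 385, against 431 for cobomarsen array 1 and 422 to 443 for untreated HuT78, so changes of the members and calls of other genes in HuT78 are given with cobomarsen array 1 alone as well. The host transcript of miR-155 had signals of 36.2 ± 20.1 in cobomarsen HuT78 and 29.9 ± 7.72 in untreated HuT78, and group means of 11499 to 29906 in the other lines. Of 12 T cell markers, 11 reached the threshold in HuT102 and in HuT78, 10 in MJ and 7 or 8 in MyLa, where CD5, CD7, TRAT1 and LCK were below it in every group. The summed signal of 6 striated muscle markers, the tissue in which many other myosins were first known, was 152 to 452.

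**Figure D1:**
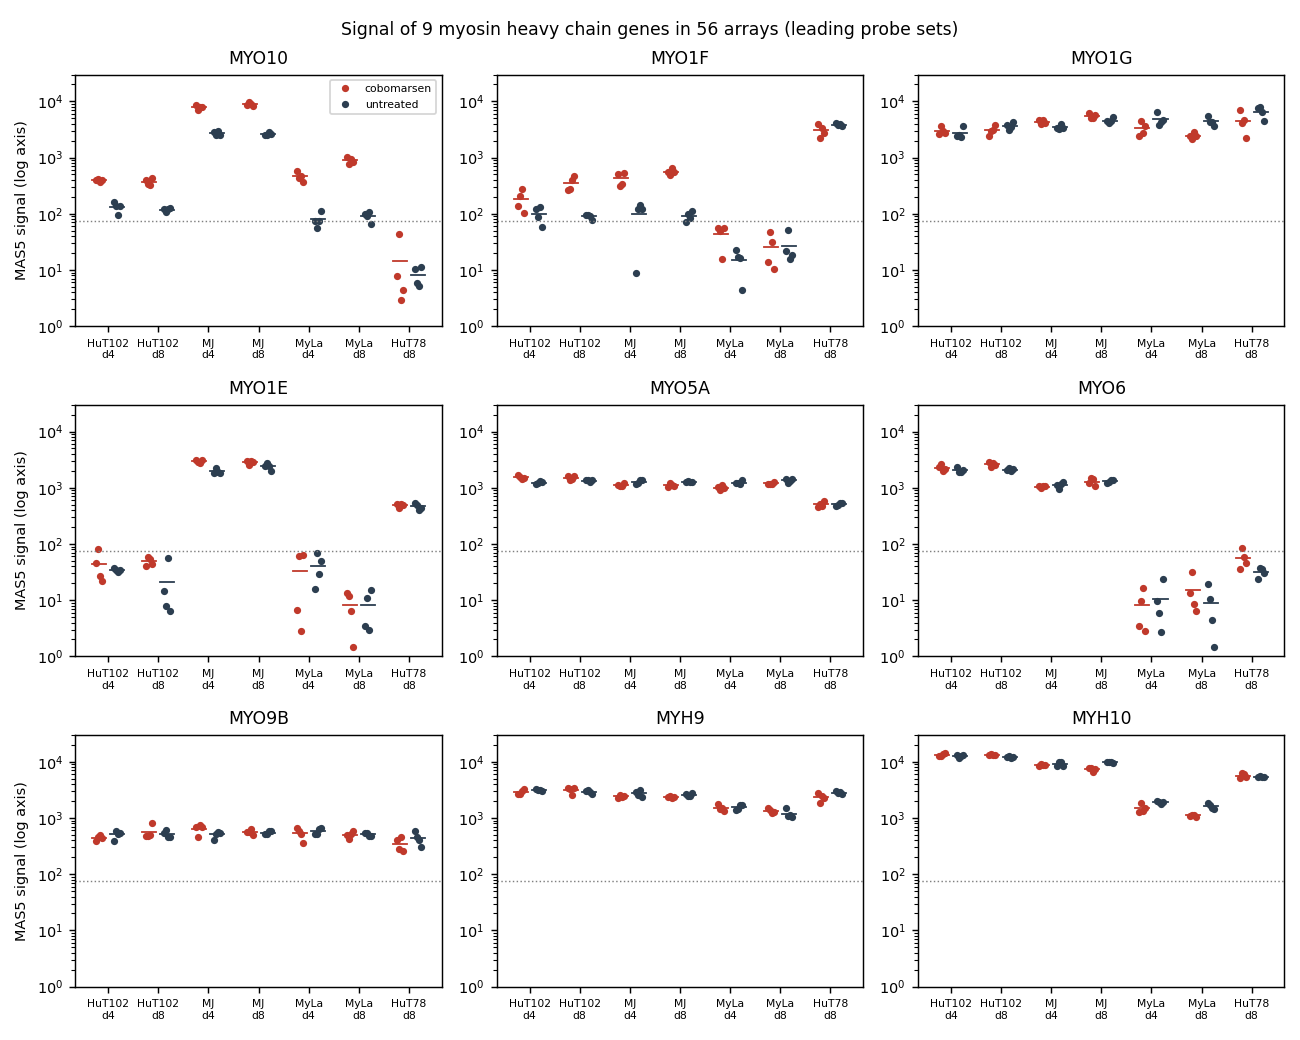
MAS5 signal (log axis) of the leading probe set of each of the 9 genes in all 56 arrays, by line and day, with cobomarsen in red on the left of each pair and untreated in dark on the right. Points are arrays, horizontal bars are means, and the dotted line is the threshold of 74.0; MYO10 separates fully in HuT102, MJ and MyLa, and in HuT78 it lies under the line.

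MYO10 rose with cobomarsen in HuT102, MJ and MyLa on both days, and its level in HuT78 was below the threshold with or without the drug. The gene lies at chr5:16661907-16936288, and its leading probe set is 201976_s_at. In HuT102 on day 4 the signals were 402, 413, 365 and 400 in the cobomarsen arrays, against 160, 137, 93.9 and 138 in the untreated arrays. On day 8 they were 403, 339, 331 and 424 in cobomarsen HuT102, against 120, 109, 119 and 127 in untreated HuT102. The groups did not overlap on either day, and every untreated array lay below every treated one. The log2 change was 1.49 ± 0.19 on day 4 (2.81-fold, limma adjusted p = 1.96e-08) and 1.53 on day 8 (2.88-fold, limma adjusted p = 2.74e-09).

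In MJ, the line with the highest MYO10 signal, the cobomarsen arrays read 8501, 6963, 8095 and 7851 on day 4, against 2835, 2564, 2948 and 2553 in the untreated arrays. On day 8 they read 8592, 9837, 9011 and 8298 in cobomarsen MJ, against 2472, 2557, 2792 and 2659 in untreated MJ. The treated arrays were again all above the untreated ones, by 2.87-fold on day 4 (log2 change 1.52, limma adjusted p = 6.99e-09) and 3.39-fold on day 8 (1.76, limma adjusted p = 7.48e-11). In MyLa the signals were 578, 437, 472 and 371 in cobomarsen arrays on day 4, against 74.9, 55.6, 74.8 and 114 in untreated arrays. On day 8 they were 1005, 760, 956 and 846 in cobomarsen MyLa, against 99.4, 92.0, 109 and 65.1 in untreated MyLa. Untreated MyLa thus lay near the threshold while all 8 treated arrays were well above it. The change was 5.07-fold on day 4 (log2 change 2.34, limma adjusted p = 2.34e-14) and 8.51-fold on day 8 (3.09, limma adjusted p = 2.93e-19).

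In HuT78 the 4 cobomarsen arrays read 7.76, 43.3, 2.92 and 4.40, and the 4 untreated arrays 10.4, 5.90, 5.11 and 11.5. All 8 values are under the threshold and the groups overlap, so no change was tested. In order of mean, cobomarsen MJ stood first, at 8935 ± 669 on day 8 and 7852 ± 651 on day 4, which overlapped. Untreated MJ followed, at 2725 ± 197 on day 4 and 2620 ± 138 on day 8, also overlapping, and no array of untreated MJ reached a treated MJ array. Cobomarsen MyLa on day 8 came next at 892 ± 110.0, clear of both neighbours. Cobomarsen MyLa on day 4 at 465 ± 86.3 overlapped with cobomarsen HuT102 at 395 ± 21.1 on day 4, which overlapped with cobomarsen HuT102 at 374 ± 46.4 on day 8. Below a gap stood untreated HuT102 at 132 ± 27.6 on day 4 and 119 ± 7.19 on day 8, then untreated MyLa at 91.5 ± 19.0 on day 8 and 79.8 ± 24.5 on day 4, each overlapping with the next. HuT78 was last, at 14.6 ± 19.2 with cobomarsen and 8.22 ± 3.18 untreated (SD, n = 4 arrays in each group). Treated HuT102 and MyLa arrays therefore all lay under every untreated MJ array.

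The size of the MYO10 response differed between lines. A limma test of the difference in cobomarsen effect between the 4 lines on day 8 gave an adjusted p of 7.82e-12, and without HuT78, which was under the threshold, an adjusted p of 3.35e-09. HuT102 and MJ, in 1 run, were not told apart: the effect in MJ minus that in HuT102 was 0.23 ± 0.27 on day 8 (limma adjusted p = 0.600) and 0.03 ± 0.27 on day 4 (0.972). A difference that involves MyLa cannot be told apart from the run. Between the 3 lines on day 4 the limma adjusted p was 0.0189. That day 4 call was lost with an offset of 1 (0.148), with quantile normalization (0.0538), without MyLa cobomarsen array 1 (0.0634) and without MyLa untreated array 2 (0.0746). From day 4 to day 8 the response grew by a log2 difference of 0.75 ± 0.27 in MyLa, a limma adjusted p of 0.0505 that missed the threshold. That difference was called with an offset of 64 (0.00152), with 1 probe set a gene (0.0476) and without day 4 cobomarsen array 1 or untreated array 2 or day 8 cobomarsen array 2 or untreated array 1 or 3 (0.0256 to 0.0468). The differences in HuT102 (0.04 ± 0.27, limma adjusted p = 0.973) and MJ (0.24, limma adjusted p = 0.959) were smaller than their errors. In untreated cells MYO10 on day 8 less day 4 differed by -0.12 in HuT102 (limma adjusted p = 0.825), -0.05 in MJ (0.959) and 0.18 in MyLa (0.630). The arrays of the day comparisons are the ones used for the treatment comparisons.

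**Figure D2:**
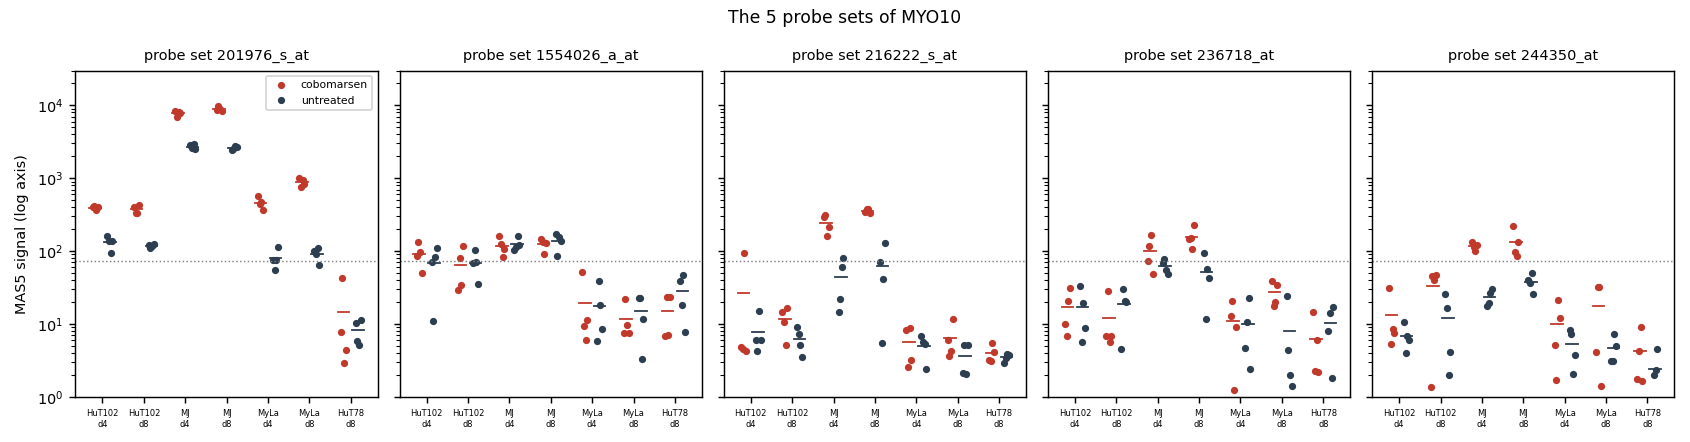
MAS5 signal (log axis) of the 5 MYO10 probe sets in all arrays, cobomarsen in red left of untreated in dark; points are arrays, horizontal bars means, the dotted line the threshold of 74.0. In MJ, 4 of the 5 have higher treated means on both days, while 1554026_a_at does not.

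The other 4 MYO10 probe sets had group means under 92 outside MJ, so the comparison between probe sets rests on MJ. Probe set 216222_s_at read 292, 310, 163 and 216 in cobomarsen MJ on day 4, against 14.8, 21.8, 60.8 and 80.5 in untreated MJ (limma adjusted p = 4.31e-06). On day 8 it read 343, 384, 379 and 332 in cobomarsen MJ, against 71.8, 5.48, 41.6 and 129 in untreated MJ (limma adjusted p = 1.40e-07). The groups did not overlap on either day. Its untreated means were under the threshold, so it entered the test through the treated arrays and no fold is given. Probe set 236718_at also entered through its treated arrays on day 8, with means of 159 in cobomarsen MJ and 51.3 in untreated MJ (limma adjusted p = 7.21e-04, and 0.0512 with an offset of 1), and its day 4 means of 101 and 62.4 did not pass (0.369). Probe set 244350_at was too dim to test, with means of 117 and 134 in cobomarsen MJ on days 4 and 8, against 23.3 and 38.1 in untreated MJ, and its groups did not overlap. Probe set 1554026_a_at went another way: it averaged 119 ± 31.8 in cobomarsen MJ and 125 ± 26.5 in untreated MJ on day 4 (limma adjusted p = 0.918), and 124 ± 23.5 in cobomarsen MJ and 138 ± 37.3 in untreated MJ on day 8 (0.874). Which transcript each probe set reads is not annotated here. Over the 14 group means the 4 probe sets correlated with the leading one at 0.704 (1554026_a_at), 0.843 (216222_s_at), 0.897 (236718_at) and 0.888 (244350_at), a description in which line differences weigh most.

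Counting all 9 genes through their leading probe sets, MYO10 was the one that rose in every comparison in which it was tested. In HuT102 on day 4, 2 of 8 tested members rose and none fell, where over all leading probe sets 22.1% were called (9.78% higher, 12.4% lower). On day 8 in HuT102, 2 of 8 rose and none fell, against 39.6% called over all (18.7% higher, 20.9% lower). In MJ on day 4, 2 of 9 rose and none fell (26.7% of all called, 12.9% higher, 13.8% lower). In MJ on day 8, 2 of 9 rose and 2 fell (33.1% of all called, 14.9% higher, 18.2% lower). In MyLa, 1 of 6 rose and 3 fell on day 4 (25.9% of all called, 13.2% higher, 12.7% lower), and 1 rose and 2 fell on day 8 (41.5% of all called, 23.4% higher, 18.1% lower). In HuT78 none of 7 rose and 2 fell (20.2% of all called, 9.75% higher, 10.4% lower). Over all probe sets, second ones included, the share called was 19.4% and 35.9% in HuT102 on days 4 and 8, 23.7% and 28.8% in MJ, 24% and 37.6% in MyLa and 16% in HuT78. The arrays of the compared groups did not overlap for 2 and 4 of the tested members' leading probe sets in HuT102 on days 4 and 8, where 24.5% and 35.4% of all probe sets did not overlap. The same held for 3 and 4 members in MJ (28.1% and 37.4% of all), 2 and 3 in MyLa (23.9% and 37.8%) and 0 in HuT78 (8.78%). The number of members called was thus near or below the background in HuT102, and near it in MJ, on day 8 in MyLa and in HuT78. In HuT78 limma called 0 of 7 in a fit of the HuT78 arrays by themselves. Only on day 4 in MyLa was it clearly above, with 4 of 6 called against 25.9%, few genes of which the MYO1G call was lost under several settings. The median log2 change of the tested members was 0.16 on days 4 and 8 in HuT102, 0.32 and 0.04 in MJ, -0.22 and -0.10 in MyLa, and -0.29 in HuT78. Over all leading probe sets the medians lay between -0.05, in HuT78, and 0.02, in MyLa on day 8.

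**Figure D3:**
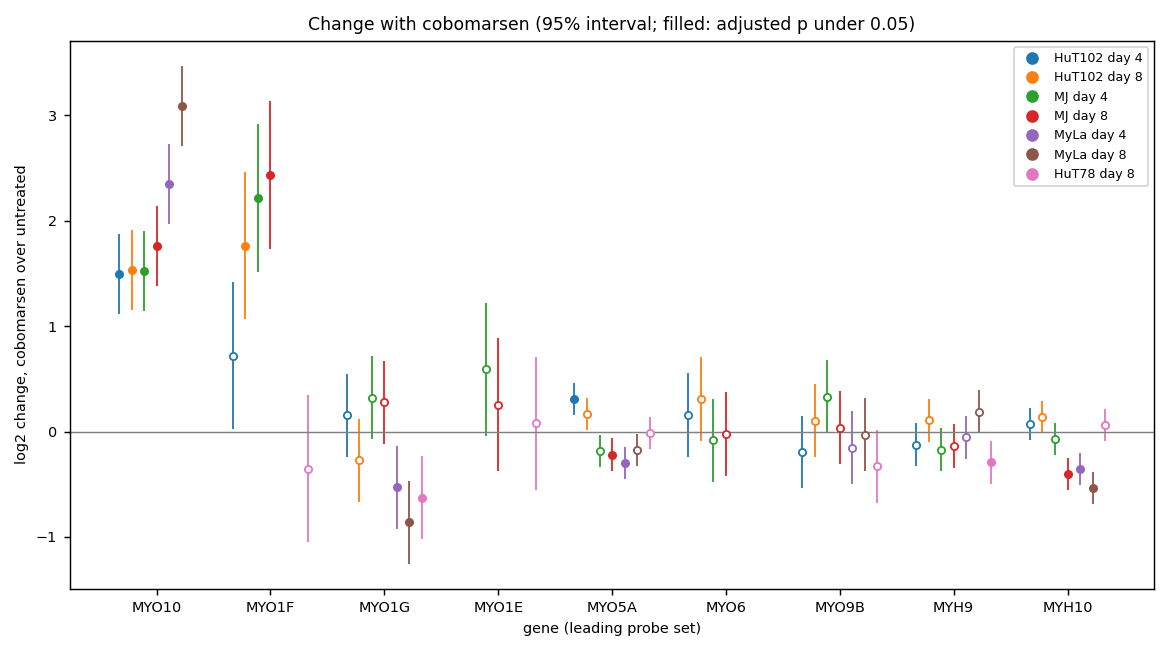
Log2 change, cobomarsen minus untreated, with its 95% interval, for the leading probe set of each gene in each comparison where it was tested; filled points were called by limma. Filled points of MYO10 lie above 0 in HuT102, MJ and MyLa, and those of MYO1F in MJ and on day 8 in HuT102. Those of MYH10 lie below 0 in MyLa and on day 8 in MJ.

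MYO1F, a class I motor of myeloid and lymphoid cells at chr19:8520778-8577442, rose in HuT102 on day 8 and in MJ on both days. Its single probe set 213733_at read 263, 274, 397 and 468 in cobomarsen HuT102 on day 8, against 96.0, 93.9, 91.7 and 75.9 in untreated HuT102. The treated arrays were all higher, by 3.39-fold (log2 change 1.76 ± 0.35, limma adjusted p = 4.66e-05). On day 4 in HuT102 the arrays overlapped, at 135, 208, 280 and 101.9 with cobomarsen, against 124, 88.9, 130 and 59.1 untreated, and the change of 0.72 ± 0.35 did not pass (limma adjusted p = 0.151). The growth of the HuT102 response between days, 1.04 ± 0.49, did not pass either (limma adjusted p = 0.268).

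In MJ, MYO1F read 514, 317, 338 and 526 in cobomarsen arrays on day 4, against 8.72, 119, 141 and 124 in untreated arrays. On day 8 it read 559, 484, 651 and 542 in cobomarsen MJ, against 71.2, 100.2, 83.1 and 110 in untreated MJ. The groups were apart on both days, with changes of 4.64-fold on day 4 (2.21 ± 0.35, limma adjusted p = 1.53e-06) and 5.40-fold on day 8 (2.43, limma adjusted p = 1.29e-07). Leaving out 1 array at a time, the day 4 change ranged from 1.58, without the untreated array at 8.72, to 2.47. MyLa was under the threshold, with means of 43.9 and 25.7 with cobomarsen on days 4 and 8, against 15.2 and 26.8 untreated. HuT78 had by far the highest signal and no called change: 3996, 2260, 3356 and 2731 with cobomarsen, against 4042, 3777, 3972 and 3655 untreated (-0.35 ± 0.35, limma adjusted p = 0.553, and 0.05 with cobomarsen array 1 alone). The test of its cobomarsen effect between the 4 lines on day 8 was called (limma adjusted p = 2.20e-06, 3.70e-04 without HuT78 and 1.19e-04 with HuT78 cobomarsen array 1 alone), but it takes in MyLa, where the gene was under the threshold. Between HuT102 and MJ, both measured and in 1 run, the effect in MJ minus that in HuT102 was 0.67 ± 0.49 on day 8 (limma adjusted p = 0.371, where 22.9% of all probe sets were called) and 1.49 ± 0.49 on day 4 (0.0428, where 9.39% were called). The test between the 3 lines on day 4, MyLa included, gave a limma adjusted p of 0.0356, and the call was lost with an offset of 1 (0.137), no filter (0.0595), no intensity trend (0.0501) and the arrays of those lines alone (0.0535). Leaving out 1 array at a time, it was called in 16 of 24 fits, with limma adjusted p up to 0.230. Leaving out the untreated MJ array at 8.72 was among the cases that lost it. The day 4 difference between MJ and HuT102 was not refitted without that array. Monocytes also carry MYO1F. Of 6 monocyte markers 5 were measured, and CD14, LYZ and FCN1 were under the threshold in every group. S100A8 passed it only in cobomarsen HuT102 on day 8, with means of 126 with cobomarsen and 34.0 untreated. Over those arrays it was too dim to test, and no fold is given. The summed signal of the 5 measured markers in MJ on day 8 was 181 to 260 with cobomarsen and 169 to 194 untreated. On day 4 in MJ it was 155 to 215 and 176 to 302. In HuT102 on day 8 it was 301 to 351 with cobomarsen and 187 to 337 untreated. The marker CSF1R was itself called in MJ on day 8, with means of 137 with cobomarsen and 81.7 untreated (0.68 ± 0.24, limma adjusted p = 0.0277), and its changes of -0.38 in MJ on day 4 (0.285) and -0.43 in HuT102 on day 8 (0.172) did not pass. The part of these markers in the MYO1F values was not tested. In bulk RNA, a change in the share of cells that express a gene and a change in the RNA per cell cannot be told apart.

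MYO1G, the class I motor most restricted to lymphocytes, where it adds to membrane stiffness, fell in MyLa. The gene lies at chr7:44962662-44979015. Its leading probe set 244654_at read 2371, 2130, 2874 and 2408 in cobomarsen MyLa on day 8, against 5573, 4309, 4338 and 3699 in untreated MyLa. The groups were apart, and the log2 change was -0.86 ± 0.19 (1.82-fold lower, limma adjusted p = 3.27e-04). On day 4 the arrays overlapped, at 2462, 4535, 2777 and 3678 with cobomarsen and 6443, 3833, 4246 and 4743 untreated, and the change was -0.53 ± 0.19 (limma adjusted p = 0.0402). The day 4 call in MyLa was lost with no filter (0.0686), quantile normalization (0.0586) and no intensity trend (0.0626). It was also lost without cobomarsen array 1 (0.176) or 3 (0.122) and without untreated array 1 (0.202) or 4 (0.0684). HuT102 changed by 0.15 (limma adjusted p = 0.659) and -0.27 (0.296) on days 4 and 8, and MJ by 0.32 ± 0.19 (0.256) and 0.28 (0.321), which were called in a fit of the MJ arrays alone (0.00741 and 0.0168). The 4-line test on day 8 gave a limma adjusted p of 0.00241, which was 1.35e-04 without HuT78, 3.97e-04 with HuT78 cobomarsen array 1 alone, 0.155 for HuT102 against MJ and 0.553 for MyLa against HuT78. The 3-line test on day 4 gave 0.0384, which was lost with no filter (0.0640), with no intensity trend (0.0656) and without any 1 of 9 arrays of MJ and MyLa (0.0533 to 0.139).

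The second MYO1G probe set, 227799_at, gave smaller changes in MyLa and a call in MJ that the first did not. It read 5069, 5313, 6989 and 5595 in cobomarsen MJ on day 4, against 4340, 4620, 4294 and 3698 in untreated MJ (0.43 ± 0.11, limma adjusted p = 0.00248). On day 8 it read 4608, 4922, 5072 and 5622 in cobomarsen MJ, against 3520, 3546, 3590 and 3859 in untreated MJ (0.47, limma adjusted p = 6.37e-04). The MJ groups did not overlap on either day, and the leading probe set moved in the same direction without a call. In MyLa on day 8 it fell by 0.31 on the log2 scale, with means of 2727 with cobomarsen and 3387 untreated (limma adjusted p = 0.0220), a call lost without cobomarsen array 2 (0.0639) or 3 (0.0604) or untreated array 3 (0.0632) or 4 (0.0510). In HuT102 on day 8 it fell by 0.33 with overlapping groups of means 3354 with cobomarsen and 4159 untreated (limma adjusted p = 0.0158), lost without cobomarsen array 1 (0.106) or 3 (0.0898) or untreated array 2 (0.0591) or 4 (0.0516). On day 4 in MyLa it changed by 0.05 (0.791), unlike the leading probe set. The effect in MJ minus that in HuT102 on 227799_at was 0.80 ± 0.16 on day 8 (limma adjusted p = 8.09e-05), a call the leading probe set did not give. On day 4 it was 0.39 ± 0.16 (0.112). Across the 14 group means the pair correlated at 0.579.

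MYO1E, the long-tailed class I motor of endocytic and adhesion sites at chr15:59132434-59372871, was measurable in MJ and HuT78. Probe set 203072_at read 3059, 2872, 2813 and 3079 in cobomarsen MJ on day 4, against 1851, 2266, 1922 and 1825 in untreated MJ. The groups were apart, yet the change of 0.59 ± 0.31 was not called (limma adjusted p = 0.184), with a 95% interval of -0.04 to 1.22. The SE is estimated over all 4 lines, and from the MJ arrays alone it was 0.08. It was called with an offset of 64 (0.00532) and in that fit of the MJ arrays (1.49e-05). On day 8 the MJ means were 2858 with cobomarsen and 2402 untreated (limma adjusted p = 0.611, and 0.0196 with the MJ arrays alone). HuT78 had means of 490 with cobomarsen and 465 untreated (limma adjusted p = 0.911, and a change of 0.14 with cobomarsen array 1 alone). The HuT102 means were 44.6 and 49.2 with cobomarsen on days 4 and 8, against 34.2 and 21.0 untreated, and the MyLa means 33.7 and 8.30, against 40.7 and 8.13, all under the threshold.

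MYO5A, the vesicle motor at chr15:52307283-52529050, changed in opposite directions in HuT102 and MyLa on day 4 in its leading probe set. Probe set 204527_at read 1672, 1577, 1422 and 1469 in cobomarsen HuT102, against 1172, 1192, 1303 and 1284 in untreated HuT102 (0.31 ± 0.08, limma adjusted p = 0.00218). In MyLa on day 4 it read 1013, 901, 1141 and 973 with cobomarsen, against 1233, 1222, 1142 and 1357 untreated (-0.30, limma adjusted p = 0.00254). Neither pair of groups overlapped, although in MyLa the nearest arrays were 1141 and 1142. The 3-line test on day 4 gave a limma adjusted p of 4.24e-05, and the 4-line test on day 8 gave 0.00635 (0.00259 without HuT78 and 0.00533 with HuT78 cobomarsen array 1 alone). The effect in MJ minus that in HuT102 was -0.49 ± 0.11 on day 4 (limma adjusted p = 0.00124) and -0.39 on day 8 (0.00533), and MyLa minus HuT78 was -0.16 on day 8 (0.255). MJ on day 8 read 1017, 1199, 1132 and 1081 with cobomarsen, against 1285, 1296, 1284 and 1289 untreated (-0.22, limma adjusted p = 0.0236), a call lost without cobomarsen array 1 (0.104) or 4 (0.0564). The other changes of this probe set did not pass: 0.17 in HuT102 on day 8 (0.0755), -0.18 in MJ on day 4 (0.0774), -0.17 in MyLa on day 8 (0.0661) and -0.01 in HuT78, which was -0.15 with cobomarsen array 1 alone. Each of the first 3 was called without 1 array: HuT102 without cobomarsen array 2 (0.22, limma adjusted p = 0.0307), MJ without untreated array 1 (-0.22, 0.0422) and MyLa without untreated array 2 (-0.22, 0.0258). Of the other MYO5A probe sets, 227761_at fell in HuT78, with means of 214 with cobomarsen and 321 untreated (-0.57 ± 0.17, limma adjusted p = 0.0161), which became -0.30 with cobomarsen array 1 alone and was not called. That HuT78 call was also lost without cobomarsen array 3 (0.0718) or 4 (0.106) or untreated array 2 (0.0775). Probe set 241966_at was called in no treatment comparison, and 217417_at stayed under the threshold throughout. The difference between MJ and HuT102 was not called outside the leading probe set. On 227761_at, MJ minus HuT102 was 0.09 ± 0.24 on day 4 (limma adjusted p = 0.881) and 0.01 ± 0.24 on day 8 (0.980). On 241966_at it was -0.25 ± 0.35 (0.758) and 0.28 ± 0.35 (0.634).

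MYO6, the motor that moves toward the pointed end of actin and serves endocytosis, lies at chr6:75749239-75919537 and was measured in HuT102 and MJ. Its leading probe set 203216_s_at read 2860, 2346, 2766 and 2535 in cobomarsen HuT102 on day 8, against 2059, 2261, 2007 and 2113 in untreated HuT102, apart but not called (0.31 ± 0.20, limma adjusted p = 0.231, and 0.00782 with the HuT102 arrays alone). A second probe set, 203215_s_at, rose there: 870, 696, 745 and 1060 with cobomarsen, against 439, 505, 473 and 589 untreated (0.72 ± 0.19, limma adjusted p = 0.00200, and 0.0622 with an offset of 1). On day 4 in HuT102 the leading means were 2282 with cobomarsen and 2041 untreated (limma adjusted p = 0.652). The third probe set, 210480_s_at, moved by 0.39 on day 8 in HuT102 without a call (0.307, and 0.0131 with the HuT102 arrays alone). In MJ on day 8, 203215_s_at fell, at 134, 124, 201 and 207 with cobomarsen against 254, 225, 186 and 345 untreated (-0.55 ± 0.19, limma adjusted p = 0.0221), with overlap. That MJ call was lost with an offset of 1 (0.165), without cobomarsen array 1 (0.0873) or 2 (0.115) and without untreated array 4 (0.146). The effect in MJ minus that in HuT102 on day 8 was -1.27 ± 0.27 on 203215_s_at (limma adjusted p = 2.54e-04). On the leading probe set it was -0.33 ± 0.28 (0.447). The leading probe set was level in MJ, with means of 1044 and 1288 with cobomarsen on days 4 and 8, against 1114 and 1300 untreated. MyLa and HuT78 had MYO6 means of 8.18 to 55.7, under the threshold in every group.

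MYO9B, whose tail carries a RhoGAP domain, lies at chr19:17075777-17213286 and was steady in its leading probe set 214780_s_at, which had group means of 348 to 647 and no call. Its largest changes there were 0.33 in MJ on day 4 (limma adjusted p = 0.178) and -0.33 in HuT78 (0.197), which was -0.08 with cobomarsen array 1 alone. Probe set 208452_x_at rose in MJ on day 8, at 244, 340, 274 and 326 with cobomarsen against 199, 148, 138 and 189 untreated (0.76 ± 0.25, limma adjusted p = 0.0186). These groups were apart, and the call was lost without cobomarsen array 2 (0.0592) or 4 (0.0505) or untreated array 2 (0.0526) or 3 (0.0645). Probe set 217297_s_at fell in MyLa on day 4, at 333, 374, 359 and 206 with cobomarsen against 542, 462, 426 and 490 untreated (-0.60 ± 0.19, limma adjusted p = 0.0143), lost without cobomarsen array 4 (0.124) or untreated array 1 (0.0520). In HuT78 both fell, by 0.88 (limma adjusted p = 0.0141) and 0.58 (0.0278), and with cobomarsen array 1 alone the values were 0.146 and -0.04, neither called. The first call was also lost without cobomarsen array 2 (0.159) or 4 (0.0559) or untreated array 1 (0.0733), and the second without cobomarsen array 2 (0.0866) or 4 (0.180) or untreated array 1 (0.141) or 2 (0.0937). The 3 probe sets of the gene thus gave no call shared by all 3.

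The non-muscle myosin II heavy chains moved differently from each other. MYH10, at chr17:8474212-8630725, encodes the B form, the slower motor with the longer hold on actin. Its probe set 212372_at read 1089, 1143, 1130 and 1061 in cobomarsen MyLa on day 8, against 1842, 1674, 1512 and 1424 in untreated MyLa. In MJ on day 8 it read 7740, 7653, 6594 and 7448 with cobomarsen, against 9847, 9766, 9885 and 9339 untreated. Both pairs were apart, with changes of -0.53 in MyLa (1.45-fold lower, limma adjusted p = 8.39e-08) and -0.40 ± 0.08 in MJ (1.32-fold lower, limma adjusted p = 2.58e-05). In MyLa on day 4 it read 1291, 1873, 1337 and 1521 with cobomarsen, against 1988, 1936, 1782 and 1959 untreated (-0.36, limma adjusted p = 2.43e-04), with overlap through 1 treated array.

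MYH10 was level elsewhere: in MJ on day 4 the means were 8715 with cobomarsen and 9166 untreated (-0.07, limma adjusted p = 0.581), in HuT78 5674 and 5419 (0.06, 0.653, and -0.09 with cobomarsen array 1 alone), and in HuT102 on day 4 13288 and 12629 (0.07). In HuT102 on day 8 it was 13293 ± 127 with cobomarsen and 12056 ± 433 untreated, groups that did not overlap and a change of 0.14 that did not pass (limma adjusted p = 0.144). The effect differed between the 4 lines on day 8 (limma adjusted p = 1.34e-07, 1.45e-06 without HuT78 and 1.19e-06 with HuT78 cobomarsen array 1 alone) and between the 3 lines on day 4 (0.00548). On day 8 it also differed within each run, by -0.54 ± 0.11 for MJ minus HuT102 (limma adjusted p = 8.50e-05) and -0.59 for MyLa minus HuT78 (1.62e-05), while MJ minus HuT102 on day 4 was -0.14 (0.483). The difference between days in MJ, -0.33 ± 0.11, was not called (0.179, and 0.0407 with the MJ arrays alone). Untreated MyLa itself had less MYH10 on day 8 than on day 4, by 0.25 ± 0.08 on the log2 scale (limma adjusted p = 0.0227), a call lost without untreated day 4 array 1 (0.0706), 2 (0.0566) or 4 (0.0550) or day 8 array 3 (0.0947) or 4 (0.141), and with the MyLa arrays alone (0.117). The second MYH10 probe set, 213067_at, followed the first across groups (r = 0.980 over 14 group means) and was not called, including in HuT102 on day 8, where it averaged 917 with cobomarsen and 605 untreated (0.54 ± 0.26, limma adjusted p = 0.106, and 0.0131 with the HuT102 arrays alone).

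MYH9, the A form and the main myosin II of T cells, lies at chr22:36281280-36387967. Probe set 211926_s_at was called in HuT78, at 2743, 1824, 2447 and 2310 with cobomarsen against 3011, 2762, 2891 and 2664 untreated (-0.29 ± 0.10, limma adjusted p = 0.0410). The groups overlapped, the value with cobomarsen array 1 alone was -0.04, and the call was lost without cobomarsen array 2 (0.279), 3 (0.0503) or 4 (0.0901) or untreated array 1 (0.120), 2 (0.0654) or 3 (0.0930). MYO1G behaved likewise in HuT78, with a change of -0.63 ± 0.19 (limma adjusted p = 0.0216) that was 0.0947 with array 1 alone and was lost without cobomarsen array 4 (0.278) or untreated array 1 (0.0828) or 2 (0.0875). These were the 2 members called in HuT78, and limma called none with cobomarsen array 1 alone (0 at an unadjusted p under 0.05) or in a fit of the HuT78 arrays by themselves (3 at that level). In MyLa on day 8 the MYH9 means were 1348 with cobomarsen and 1190 untreated (0.19, limma adjusted p = 0.143), and without the untreated array at 1508 the change was 0.31 (0.0144). Untreated MyLa on day 8 read 1508, 1085, 1117 and 1050, against 1399, 1461, 1722 and 1703 on day 4 (-0.41 ± 0.10, limma adjusted p = 0.00620). The 4-line test for MYH9 gave a limma adjusted p of 0.0120, which was 0.103 without HuT78, 0.154 with HuT78 cobomarsen array 1 alone, 0.242 for HuT102 against MJ and 0.00746 for MyLa against HuT78.

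Over the leading probe sets, the cobomarsen effect differed between the 4 lines on day 8 for 6 of the 9 genes, where 64.3% of all leading probe sets were called, and between the 3 lines on day 4 for 5 of the 9, where 26.1% were called. With HuT102 and MJ alone, 2 genes were called on day 8 (MYO5A and MYH10, where 22.9% of all probe sets were). On day 4 there were 2 (MYO1F and MYO5A, 9.39%), and with MyLa and HuT78 alone 2 on day 8 (MYH9 and MYH10, 33.3%). The MYO1F call was not repeated without the untreated MJ array at 8.72. Of the other probe sets, MYO1G 227799_at and MYO6 203215_s_at were called for HuT102 against MJ on day 8. MYO5A 227761_at and MYH10 213067_at were not. MYO9B 217297_s_at and 208452_x_at were called for MyLa against HuT78. All calls for MyLa against HuT78 use the 4 HuT78 cobomarsen arrays, and the pair is not given with array 1 alone. With array 1 alone the HuT78 changes were -0.04 for MYH9, -0.04 for 217297_s_at, 0.146 for 208452_x_at and -0.09 for MYH10. By leading probe set, the genes not called between all lines on day 8 were MYO1E (limma adjusted p = 0.171), MYO6 (0.300) and MYO9B (0.377). On day 4 they were those and MYH9. MYO1E was under the threshold in HuT102 and MyLa, and MYO6 in MyLa and HuT78. The tests of MYO1E and MYO6 are therefore not of measured effects in every line. No member was called for a difference in effect between day 8 and day 4, where 6.64% of all leading probe sets were called in HuT102, 0.924% in MJ and 16.3% in MyLa. In the same limma tests MYO10 in MyLa came nearest, and with 1 probe set a gene or an offset of 64 it was called. Between untreated day 8 and day 4, no member was called in HuT102 (8.16% of all) or MJ (1.47%), and MYH9 and MYH10 were lower on day 8 in MyLa (2 of 6, where 12.1% of all were called, 6.05% higher and 6.05% lower).

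**Figure D4:**
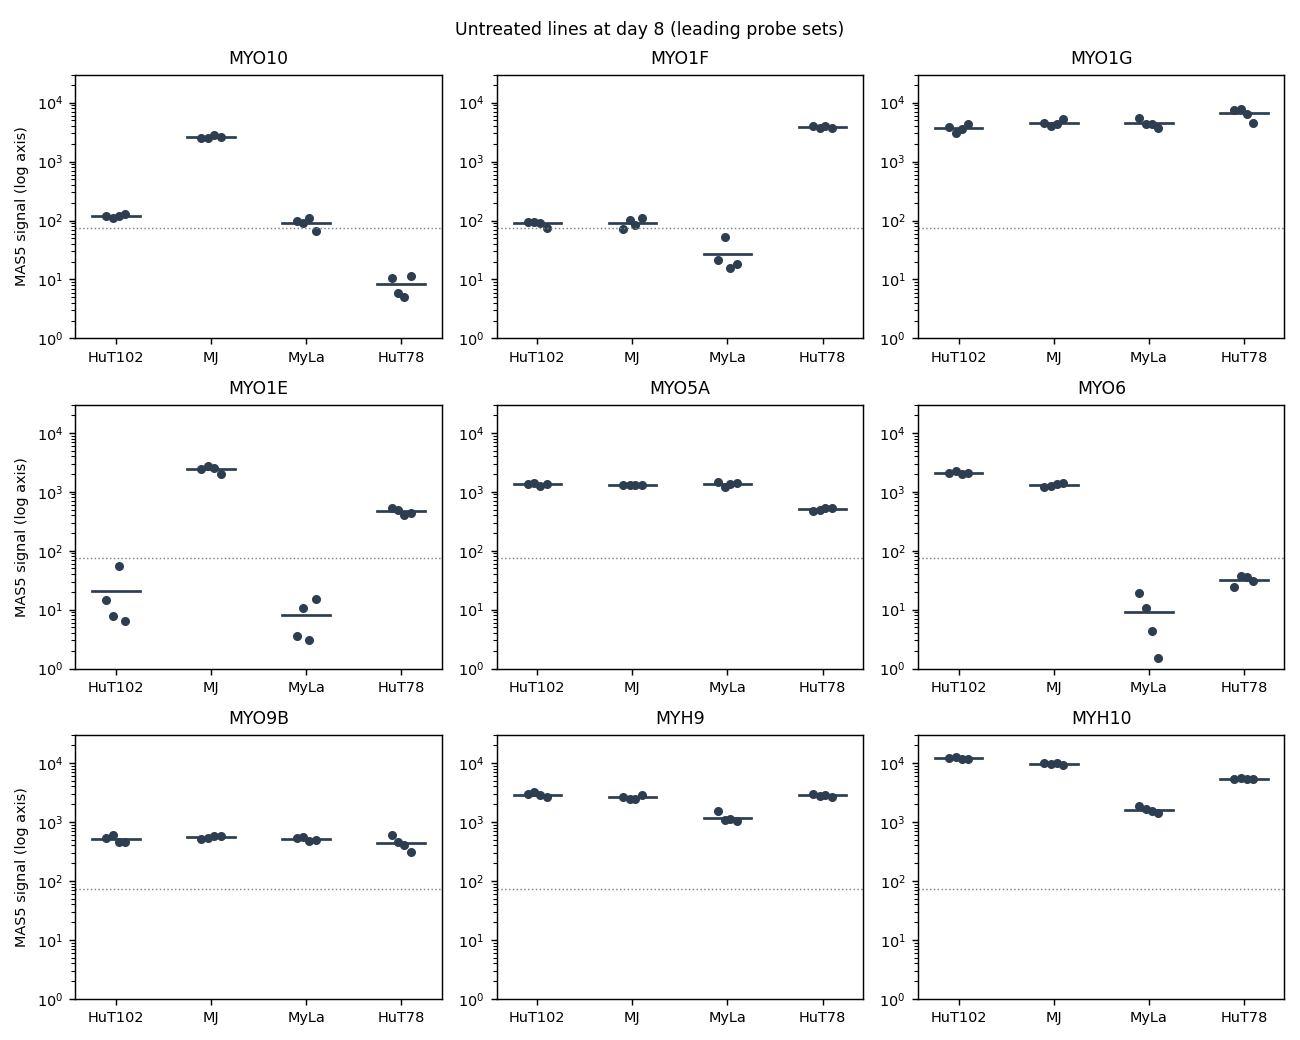
MAS5 signal (log axis) of the leading probe sets in untreated cells of the 4 lines on day 8; points are arrays, bars are means, and the dotted line is the threshold of 74.0. MYO10 and MYO1E stand highest in MJ, MYO1F in HuT78, MYO6 in HuT102 and MJ, and MYH9 lowest in MyLa.

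The untreated lines differed widely in which of these motors they carried on day 8, where HuT102 and MJ, and MyLa and HuT78, share a run of array numbers and the other pairs do not. Of the members tested, limma called 4 of 9 between HuT102 and MJ (57.4% of all leading probe sets), 3 of 7 between HuT102 and MyLa (69%), 6 of 8 between HuT102 and HuT78 (73.5%), 5 of 8 between MJ and MyLa (65.4%), 7 of 9 between MJ and HuT78 (69%) and 6 of 7 between MyLa and HuT78 (74.8%). The members' share was below the background for HuT102 against MyLa and near it for the other pairs, on 7 to 9 tested genes each. MYO10 averaged 2620 in MJ and 119 in HuT102, a 19.6-fold difference (log2 difference MJ over HuT102 4.29 ± 0.19, limma adjusted p = 3.26e-26), and MJ exceeded MyLa, at 91.5, by 24.8-fold. HuT102 and MyLa did not pass (0.34, limma adjusted p = 0.108).

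MYO1F ran the other way, with a mean of 3861 in HuT78, 36.9-fold above HuT102 at 89.4 and 36.6-fold above MJ at 91.0, while HuT102 and MJ differed by -0.01 (limma adjusted p = 0.981). MYO1E averaged 2402 in MJ and 465 in HuT78 (5.02-fold, limma adjusted p = 4.91e-09), and was under the threshold in HuT102 (21.0) and MyLa (8.13). MYO6 averaged 2110 in HuT102 and 1300 in MJ (1.62-fold, limma adjusted p = 0.00247, and 0.164 with an offset of 1), against 8.98 in MyLa and 31.5 in HuT78. The lines thus split by gene, and no line was highest for all of these motors.

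MYO5A stood at 1339, 1288 and 1359 in HuT102, MJ and MyLa and at 510 in HuT78, a difference of 2.48 to 2.61-fold. MYH9 was lower in MyLa, at 1190, than in HuT102 (2922), MJ (2608) and HuT78 (2832), by 2.19 to 2.46-fold. MYH10 separated every pair, with 12056 in HuT102, 9709 in MJ, 5419 in HuT78 and 1613 in MyLa, 7.44-fold between HuT102 and MyLa. MyLa was therefore the line with the least of both myosin II heavy chains. MYO1G averaged 6586 in HuT78 against 3689 in HuT102, 4538 in MJ (limma adjusted p = 0.0192) and 4480 in MyLa (0.0121). The call against MJ was lost without HuT78 array 1 (0.0662) or 2 (0.0792) or MJ array 2 (0.0538), and that against MyLa without HuT78 array 2 (0.0549) or MyLa array 4 (0.0516). MYO9B, at 441 to 548, was called between no pair, and without HuT78 array 1 it was called for MJ (0.0165) and MyLa (0.0477) against HuT78. The summed signal of 8 fibroblast and epithelial markers was 8585 to 11125 in HuT78, through EPCAM and KRT18, and 142 to 681 in the other lines, and its part in these differences was not tested.

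The other myosin heavy chains had a probe set for 27 of the 29 listed. Of those tested, 2 rose and 1 fell of 10 in HuT102 on day 4, 4 and 3 of 12 on day 8, 2 and 0 of 10 in MJ on day 4, 2 and 2 of 10 on day 8, 0 and 1 of 8 in MyLa on day 4, 3 and 1 of 7 on day 8, and 0 and 1 of 5 in HuT78, where limma called none with cobomarsen array 1 alone (0 at an unadjusted p under 0.05) or with the HuT78 arrays by themselves (2). Their median log2 changes were 0.27, 0.33, 0.22, 0.07, 0.05, 0.11 and -0.08 in that order. Of all leading probe sets, 22.1% and 39.6% were called in HuT102 on days 4 and 8, and 26.7% and 33.1% in MJ. The shares were 25.9% and 41.5% in MyLa and 20.2% in HuT78. MYO3B, a motor with a kinase domain that acts at the tips of actin protrusions, moved in opposite directions by line. It averaged 456 ± 58.5 in cobomarsen MJ and 103 ± 20.2 in untreated MJ on day 4 (limma adjusted p = 1.58e-15), and 468 ± 43.0 in cobomarsen MJ and 64.8 ± 11.7 in untreated MJ on day 8, where the untreated mean was under the threshold and no fold is given. It averaged 747 ± 79.3 in cobomarsen MyLa and 2305 ± 264 in untreated MyLa on day 8 (-1.61, limma adjusted p = 1.42e-12). MYO18B averaged 372 ± 82.3 in cobomarsen HuT102 and 34.4 ± 21.6 in untreated HuT102 on day 8, an untreated mean under the threshold, so that it was tested through its treated arrays and no fold is given. MYO7A, the motor of hair cell bundles, fell there to 345, against 829 in untreated HuT102 (-1.27, limma adjusted p = 3.47e-06).

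Light chains and calmodulins bind the neck of these motors, and 13 of 16 had a probe set. Of 9 tested in each line on day 8, 3 fell in HuT102, 1 in MJ, 4 in MyLa and 1 in HuT78, and none rose, where 20.9%, 18.2%, 18.1% and 10.4% of all leading probe sets were called lower. The HuT78 call, CALML4, was lost with cobomarsen array 1 alone and with the HuT78 arrays by themselves. On day 4, 1 of 9 fell in HuT102, 1 rose and 1 fell of 9 in MJ, and 1 rose and 2 fell of 8 in MyLa. Over all leading probe sets on that day, 9.78%, 12.9% and 13.2% were called higher and 12.4%, 13.8% and 12.7% lower, in that order. The median log2 changes on day 8 were -0.28 in HuT102, 0.08 in MJ, -0.33 in MyLa and -0.01 in HuT78. CALML4, a calmodulin-like light chain, fell in 5 of the 6 comparisons outside HuT78, most in MyLa on day 8 (591 ± 63.1 with cobomarsen, 1185 ± 70.8 untreated, -0.99, limma adjusted p = 9.36e-10), and was level in MyLa on day 4 (0.09, 0.633). In HuT78 it changed by -0.34 (limma adjusted p = 0.0380), by -0.03 with cobomarsen array 1 alone, and with the HuT78 arrays by themselves the adjusted p was 0.229. MYL6B, an essential light chain of myosin II, fell in MyLa on both days, to 4450 with cobomarsen against 6704 untreated on day 8 (-0.59 ± 0.07, limma adjusted p = 5.71e-09), and in HuT102 on day 8 (-0.28, 0.00208), and it rose in MJ on day 4 (0.21, 0.0354). MYL12A, a regulatory light chain, fell on day 8 in HuT102 (-0.68 ± 0.23, limma adjusted p = 0.0151) and MyLa (-0.66, 0.0170).

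Of the regulators of non-muscle myosin II, 17 of 18 had a probe set, and 2 rose and 1 fell of 15 in HuT102 on day 4, 1 and 3 of 15 on day 8, 1 and 1 of 15 in MJ on day 4, 1 and 1 of 16 on day 8, 3 and 1 of 14 in MyLa on day 4, 3 and 2 of 14 on day 8, and none of 15 in HuT78 by limma. Their median log2 changes lay between -0.11 in HuT78 and 0.12 in MJ on day 4. The shares of all leading probe sets called were 22.1% and 39.6% in HuT102 on days 4 and 8 and 26.7% and 33.1% in MJ. They were 25.9% and 41.5% in MyLa and 20.2% in HuT78. ROCK2, a kinase that activates myosin II, rose in MJ on both days (1083 with cobomarsen and 658 untreated on day 4, 0.71 ± 0.12, limma adjusted p = 3.12e-06). RHOB, a small GTPase upstream of it, rose in MyLa on both days, to 206 with cobomarsen against 87.9 untreated on day 8 (1.11, limma adjusted p = 2.34e-06). S100A4, a calcium-binding protein that takes apart MYH9 filaments, fell in HuT102 on day 8 by 1.12 on the log2 scale (limma adjusted p = 1.30e-15) and on day 4 by 0.52 (6.23e-06), and it rose in MyLa on day 4 (0.23, limma adjusted p = 0.0435).

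The filopodium genes and MYO10 partners had a probe set for 15 of 17. Of those tested, 4 rose and 3 fell of 14 in HuT102 on each day, 2 and 3 of 15 in MJ on day 4, 2 and 2 of 15 on day 8, 3 and 1 of 14 in MyLa on day 4, 4 and 2 of 14 on day 8, and 1 and 2 of 13 in HuT78, where limma called none with cobomarsen array 1 alone (0 at an unadjusted p under 0.05) or with the HuT78 arrays by themselves (3 at that level). Their median log2 changes lay between -0.11 in HuT78 and 0.15 in MyLa on day 8. Over all leading probe sets, 22.1% and 39.6% were called in HuT102 on days 4 and 8, and 26.7% and 33.1% in MJ. In MyLa the shares were 25.9% and 41.5%, and in HuT78 20.2%. FMNL3, a formin that builds filopodia, averaged 1902 ± 399 in cobomarsen HuT102 and 380 ± 55.7 in untreated HuT102 on day 8 (2.27, limma adjusted p = 2.13e-11). ITGB1, the integrin subunit that MYO10 carries, averaged 7038 in cobomarsen MJ and 3731 in untreated MJ on day 8 (0.91, limma adjusted p = 5.74e-14) and was level in MyLa on day 8 (0.06, 0.568). FSCN1, the bundler of filopodial actin, rose in HuT102 on both days (0.61 and 0.84, limma adjusted p = 6.79e-04 and 1.49e-06) and changed by 0.01 in MJ on day 8 (0.965). In HuT78 it was called lower (-0.49 ± 0.14, limma adjusted p = 0.0103), a value of 0.11 with cobomarsen array 1 alone and an adjusted p of 0.245 with the HuT78 arrays by themselves. DIAPH3, another formin, fell in HuT102 on day 8 (644 with cobomarsen, 1312 untreated, -1.01 ± 0.08, limma adjusted p = 1.26e-14) and rose in MyLa on that day (0.46, limma adjusted p = 9.67e-06).

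The cargo adaptors of MYO5A and MYO6 had a probe set for 17 of 18, and 2 rose and 1 fell of 16 in HuT102 on day 4, 3 and 6 of 16 on day 8, 3 and 2 of 16 in MJ on each day, 3 and 0 of 15 in MyLa on day 4, 6 and 2 of 15 on day 8, and 5 and 2 of 15 in HuT78. With HuT78 cobomarsen array 1 alone limma called none of those 15 (0 at an unadjusted p under 0.05, median 0.02), and with the HuT78 arrays by themselves none (7 at that level). Their median log2 changes lay between -0.11 in HuT102 on day 8 and 0.13 in MyLa on each day. Among all leading probe sets, 22.1% and 39.6% were called in HuT102 on days 4 and 8, and 26.7% and 33.1% in MJ. For MyLa the shares were 25.9% and 41.5%, and for HuT78 20.2%. MYRIP, which links MYO5A and MYO7A to RAB27A, fell in HuT102 on day 8, to 838 with cobomarsen against 1523 untreated (-0.86 ± 0.24, limma adjusted p = 0.00405), and in MJ on day 8, to 1034 against 1706 (-0.71, limma adjusted p = 0.0209).

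Among 8927 genes compared over the 14 group means, the pattern of MYO10 was most like that of HOMER3 (r = 0.965), LINC01881 (0.948), DOK1 (0.941), PTPRM (0.938) and RHOB (0.938), as a description of arrays shared by all genes. HOMER3, a scaffold protein, was called higher with cobomarsen in the same 6 comparisons as MYO10, with log2 changes of 0.50 to 1.95, and was below the threshold in HuT78, at 43.6 with cobomarsen and 52.4 untreated. PTPRM, a receptor tyrosine phosphatase, was called in HuT102 on both days (1.31 and 2.33) and in MyLa on day 8 (1.13), and not in MJ. LINC01881 was called in no treatment comparison, and DOK1 only in MJ (0.54 and 0.41). RHOB was called in HuT102 on day 4 (0.98) and in MyLa on both days (0.96 and 1.11). The gene most like each other member was SPTBN1 for MYO1F (0.977), ZBTB26 for MYO1G (0.916), CLECL1 for MYO1E (0.991), GADD45A for MYO5A (0.983), TRERF1 for MYO6 (0.993), ZNF333 for MYO9B (0.920), LBH for MYH9 (0.971) and PLIN2 for MYH10 (0.986).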

How the data were processed

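Total RNA of 56 arrays was measured on an Affymetrix expression array. The authors deposited linear MAS5 signal intensity for each probe set, per the submitters' processing notes; array versions and annotation builds are not given in the sources used here. Of 54675 probe sets, 62 controls, 1801 with several symbols and 11721 with none were left out, leaving 41091. Groups came from the labels. The members and lists were chosen with earlier results of these data known.

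One linear model over all 56 arrays and 14 groups was fitted to log2(signal + 16) in limma 3.58.1 (R 4.3.3), with an intensity trend in eBayes and Benjamini-Hochberg adjustment over the probe sets tested in each comparison. F-tests compared cobomarsen effects between lines. Genes named outside the members were those of the fixed lists and the nearest by Pearson correlation. Alternatives changed the offset (1, 64), the filter (none, 75th percentile, a signal of 424), quantile normalization, 1 probe set a gene, the trend, the arrays fitted and each array in turn. On simulated data for MJ on day 8, with 200 of 41091 probe sets changed, 47.9% of log2 changes of 0.5 and 77.8% of those of 1 were called. In the real comparison 28.8% of the tested probe sets were called, so the adjustment differed and these shares are not the power of the reported tests. The number of arrays limits precision. Python 3.11.15 with matplotlib 3.10.9 drew the figures.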

Additional observations from a re-analysis of the deposited data

Results flagged for a closer look

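In 106 groups of 4 arrays with a leading probe set over the threshold, 7 held an array far from the other three by Dixon's criterion on the gap to its nearest neighbour, where chance gives about 1 in 20. These arrays were the lowest MYO1F value in untreated MJ on day 4 (8.72), the highest MYO1G values in untreated HuT102 on day 4 (3589) and untreated MJ on day 4 (3997), the lowest MYO1E values in cobomarsen MJ on day 8 (2570) and cobomarsen HuT78 (433), the highest MYO9B value in cobomarsen HuT102 on day 8 (806) and the highest MYH9 value in untreated MyLa on day 8 (1508).

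The cobomarsen effect differed between the 4 lines on day 8 by limma's F-test for MYO10 (adjusted p = 7.82e-12), MYO1F (2.20e-06), MYO1G (0.00241), MYO5A (0.00635), MYH9 (0.0120) and MYH10 (1.34e-07). MYO10 was under the threshold in HuT78 and MYO1F in MyLa, so their tests are not of measured effects in every line. Between the 3 lines on day 4 it differed by the same limma test for MYO10 (adjusted p = 0.0189), MYO1F (0.0356), MYO1G (0.0384), MYO5A (4.24e-05) and MYH10 (0.00548).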

How the results depend on the processing

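Over 321 pairs of a member probe set and a comparison, leaving out 1 array at a time left the call as it was in 3466 values, lost a call in 84 and gained one in 35. No change called in either fit reversed its sign. A sign change that neither fit called was counted as kept, and the F-tests have no direction. Counted in the same way, the other settings kept 2209, lost 29, gained 32 and reversed no called change. Of the settings chosen after seeing the data, HuT78 with cobomarsen array 1 alone reversed MYO1G 244654_at (0.0947) and MYO9B 208452_x_at (0.146) and left 0 member genes called there by limma, where 0.0938% of all probe sets were called.

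The number of member genes called moved by more than 1.5 times in the following cases; moves of 1.5 times or less, such as 6 in place of 4 in MJ on day 8 with the MJ arrays alone and 3 in place of 4 in MyLa on day 4 with no filter, are not listed. With the filter at the 75th percentile it was 1 of 2 in HuT102 on day 4, 0 of 2 on day 8, 1 of 2 in MJ on day 4, and 3 of 5 between untreated MJ and MyLa; fewer probe sets are tested there. With only the arrays of the lines compared it was 5 in place of 2 in MJ on day 4, 0 in place of 2 in HuT78, 1 in place of 0 for the difference between days in MJ and for untreated days in MJ, and 1 in place of 2 for untreated days in MyLa. With no filter or no intensity trend it was 1 in HuT78 and 3 in place of 5 between the 3 lines on day 4, as it was with an offset of 1. With an offset of 64 or 1 probe set a gene it was 1 in place of 0 for the difference between days in MyLa. With HuT102 and MJ alone, a setting also chosen after seeing the data, it was 2 in place of 6 on day 8 and 2 in place of 5 on day 4 for the difference between lines, and with MyLa and HuT78 alone 2 in place of 6. The cause of the other moves was not tested. Leaving out 1 array at a time, the counts ranged from 0 to 2 in HuT78, 0 to 1 for the day difference in MyLa, 3 to 5 between the 3 lines on day 4 and 1 to 2 for untreated days in MyLa.

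Over all probe sets, testing without a filter lowered the share called, for example to 9.49% from 19.4% in HuT102 on day 4; in HuT78 it was 16% as reported, 25.7% at the 75th percentile, 9.81% with quantile normalization and 0.0143% with the HuT78 arrays alone. Of the HuT78 calls 43.3% were higher, against 53.8% at the 75th percentile and 10% with array 1 alone. No scaling moved the median of all probe sets by over 0.1 on the log2 scale. No paired analysis was possible because the labels give no replicate numbers shared between groups. Signals under the threshold of 74.0 are too close to background for a fold change.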
